A study of Mus musculus with 6 samples.

Results

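The genes described here encode the steps that take glucose into the cell, split it to pyruvate, turn pyruvate into lactate or pass it into mitochondria. They were 36 genes picked by name for these roles and found in the count table by Entrez Gene number and mouse symbol. All 36 had a row among the 14883 genes of the table (0.242%), and all 36 passed the filter on low counts that left 12377 tested genes. The phosphoglucomutase gene is the one now called Pgm1 in mouse (Entrez Gene 72157).

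RNA had been sequenced from B16F10luc2 cells, an established mouse melanoma line. All samples grew on elastic-bottomed plates in DMEM with 10% FBS, at 37 °C, 21% O2 and 5% CO2. The plates of 3 samples were left unmoved (static). Those of the other 3 underwent equibiaxial cyclic stretch for 24 h, with 15% elongation and 15 cycles/min. The comparison asks how expression under cyclic stretch differs from that in static culture, in 1 cell line.

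Glycolysis yields pyruvate and a small amount of ATP from glucose. Hexokinase and phosphofructokinase commit the sugar to the pathway, and fructose 2,6-bisphosphate, made and removed by the PFKFB enzymes, is a strong activator of phosphofructokinase. Lactate dehydrogenase regenerates the cofactor NAD+ by reducing pyruvate to lactate, which leaves the cell through monocarboxylate transporters. The alternative route runs through the mitochondrial pyruvate carrier to pyruvate dehydrogenase, which the PDK kinases switch off. Many tumour cells, melanoma among them, make much lactate in the presence of oxygen. Many genes of the pathway are known targets of the hypoxia-inducible factor HIF-1 and of MYC.

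Library totals ran from 19469286 to 36351400 counts. The labels do not call the samples of a group separate cultures, so the p-values reflect the spread among these libraries and that spread may be only technical. Levels are given in CPM, which are counts scaled to a common library size after TMM correction. The 8 melanocyte markers were all tested, with summed levels of 23091 to 25592 CPM in static and 20550.5 to 21174 CPM in stretched libraries. Of these markers only Mitf had a higher mean in stretched than in static libraries, 422 against 325 CPM. Fibroblast markers summed to 25.1 to 30.4 and 23.2 to 25.2 CPM (6 of 8 had a row). Leukocyte markers summed to at most 1.17 CPM in any library (2 of 6 had a row), and endothelial and epithelial markers to at most 0.589 CPM (1 of 6 had a row). Markers without a row were not analysed here, and the part of these marker levels in the results was not tested. In bulk RNA, fewer cells of a kind and less RNA per cell cannot be told apart.

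Under stretch most of the pathway was lower, but not every step and not every isoform. Of the 36 members 21 fell and 4 rose in edgeR's quasi-likelihood test (Benjamini-Hochberg adjusted p under 0.05 over all tested genes), and 11 did not pass. Over all tested genes 25.9% were called lower and 24.9% higher (50.9% in either direction). These shares are also the background of the counts by pathway step below. The median log2 fold change (stretched against static) was -0.24 over the members and 0.004 over all tested genes. Most losses were modest: the median fold of the 21 lower members was 1.35, and 4 of them (Slc16a3, Aldoc, Pdk2 and Pdk1) fell by more than 2-fold. Against a null of 1.2-fold (glmTreat), 13 members remained called lower and 1 higher (background 7.38% and 5.49%). In 22 members every stretched library lay below every static one and in 5 every one lay above (background 29.4% and 29%). The 36 genes together took 2.54% ± 0.197 of all counts in static and 2.18% ± 0.0299 in stretched libraries (mean ± SD, n = 3 per group, as all such errors below).

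**Figure D1:**
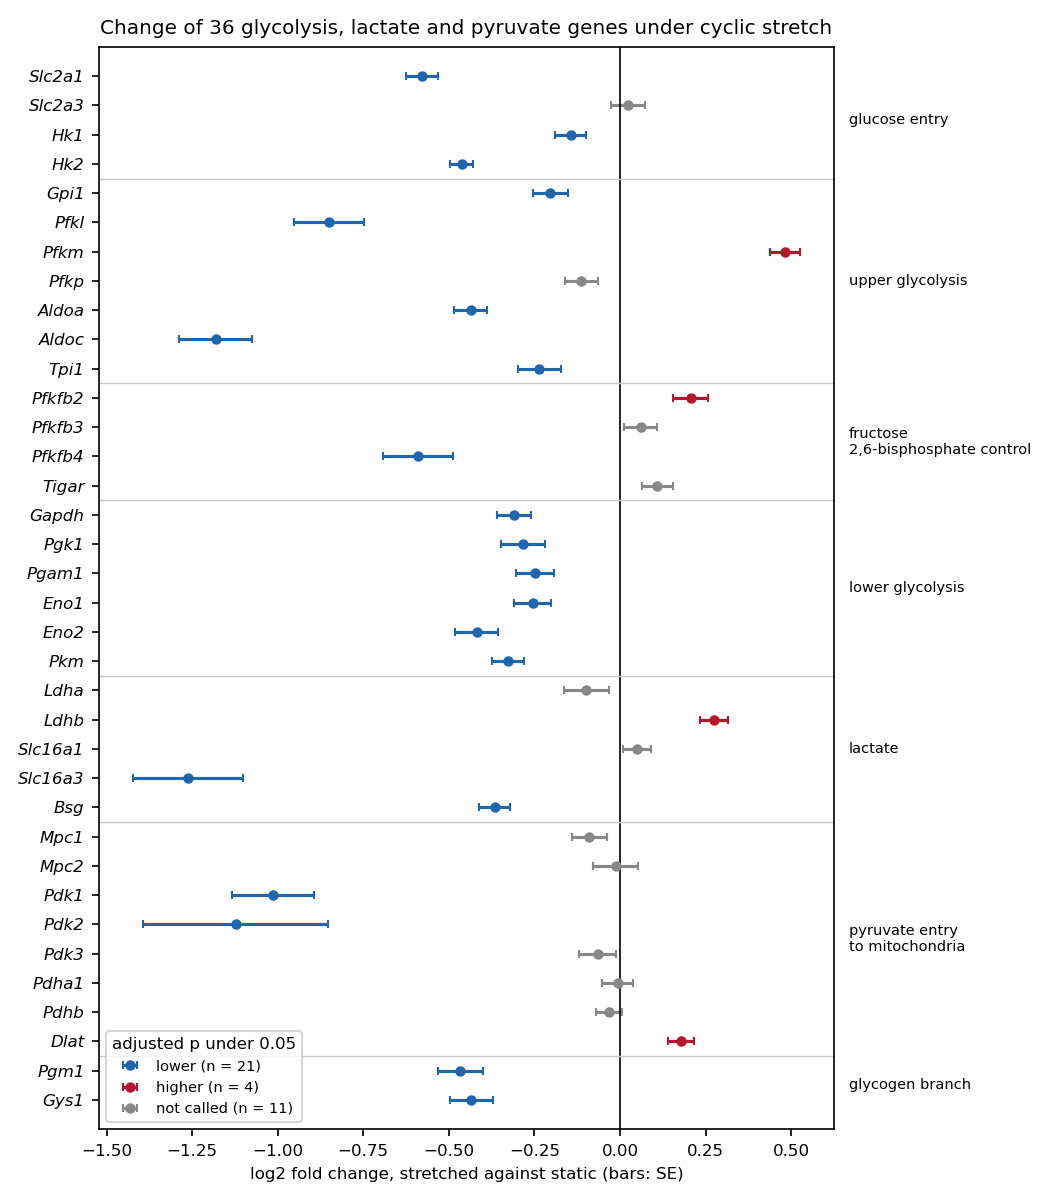
Log2 fold change of each of the 36 genes (x axis, stretched against static; bars are SE), ordered by pathway step from top to bottom, with 3 libraries per group. Blue points are the 21 genes called lower, red the 4 called higher and grey the 11 not called; Slc16a3, Aldoc, Pdk2 and Pdk1 lie farthest to the left and Pfkm farthest to the right.

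The upstream sequences below show what the 5′ flanks of genes that moved in opposite directions hold. Slc16a3, Pdk1, Hk2 and Pgk1 were lower under stretch, and Pfkm and Ldhb were higher. Each run is the RefSeq sequence (GRCm38.p6) of up to 250 bases before 1 start site of the gene, on the gene's strand. That site is the one nearest to the start of the transcript used for length. The runs of Pfkm and Slc16a3 therefore lie inside the span of the gene, before an internal start site. Each run was cut so that it holds no base of an annotated exon. Capitals mark the core of the hypoxia response element, ACGTG or GCGTG on either strand (CACGT or CACGC where it lies on the other strand).
Slc16a3 (chr11:120948817-120949052, + strand): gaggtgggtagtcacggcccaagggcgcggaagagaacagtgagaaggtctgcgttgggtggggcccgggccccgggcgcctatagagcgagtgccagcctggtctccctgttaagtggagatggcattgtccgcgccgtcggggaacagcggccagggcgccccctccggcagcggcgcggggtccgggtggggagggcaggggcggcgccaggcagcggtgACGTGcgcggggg
Pdk1 (chr2:71872974-71873223, + strand): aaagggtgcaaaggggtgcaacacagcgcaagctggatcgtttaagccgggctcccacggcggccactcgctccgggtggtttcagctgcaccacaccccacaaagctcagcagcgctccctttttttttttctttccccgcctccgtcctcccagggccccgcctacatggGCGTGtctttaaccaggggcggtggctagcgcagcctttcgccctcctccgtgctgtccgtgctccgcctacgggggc
Hk2 (chr6:82774455-82774704, - strand): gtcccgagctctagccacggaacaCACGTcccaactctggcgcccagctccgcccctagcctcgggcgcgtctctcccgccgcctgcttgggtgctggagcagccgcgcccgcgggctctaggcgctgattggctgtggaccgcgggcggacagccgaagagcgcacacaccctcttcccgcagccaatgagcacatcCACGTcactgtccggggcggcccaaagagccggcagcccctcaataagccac
Pgk1 (chrX:106186850-106187099, + strand): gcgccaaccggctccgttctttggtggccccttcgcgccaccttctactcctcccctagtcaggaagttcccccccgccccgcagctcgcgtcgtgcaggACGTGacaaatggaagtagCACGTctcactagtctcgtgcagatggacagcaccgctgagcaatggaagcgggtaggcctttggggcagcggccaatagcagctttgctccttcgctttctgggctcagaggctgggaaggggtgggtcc
Pfkm (chr15:98108221-98108465, + strand): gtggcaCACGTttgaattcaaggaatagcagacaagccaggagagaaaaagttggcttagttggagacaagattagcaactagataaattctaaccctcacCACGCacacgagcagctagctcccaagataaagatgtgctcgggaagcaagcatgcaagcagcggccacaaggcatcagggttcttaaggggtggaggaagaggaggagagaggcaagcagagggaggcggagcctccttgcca
Ldhb (chr6:142507958-142508207, - strand): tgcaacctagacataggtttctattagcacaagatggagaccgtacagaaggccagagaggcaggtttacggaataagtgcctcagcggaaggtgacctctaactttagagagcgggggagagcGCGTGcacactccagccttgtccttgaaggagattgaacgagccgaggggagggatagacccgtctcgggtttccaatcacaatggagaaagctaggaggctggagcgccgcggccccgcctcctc
A core was present in every gene printed above, lower or higher, but these genes were picked by name and not by a rule. Members without a core, such as Dlat among the higher and Eno2 and Gys1 among the lower, were not printed. RefSeq windows were at hand for 34 members, some with several start sites. In the 250 bases before at least 1 start site, 16 of 20 lower members held a core, 3 of 4 higher members did and 9 of 10 members that were not called did. Among all tested genes with a window 61.9% held one, and among all genes with a window 41.5% did. The 34 members had 51 windows with a median GC of 61.6%. The 9892 tested genes had 12617 windows with a median GC of 60.0%, and all 32851 windows had 52.4%. The shares were not adjusted for windows per gene or GC. The E-box CACGTG is the palindrome bound by MYC and contains the core ACGTG on both strands. It was found in 1 of 20 lower, 2 of 4 higher and 3 of 10 uncalled members. Of tested genes with a window 10.0% held it, and of all genes with a window 6.86%. In Pfkm, Pfkfb3 and Ldha the E-box lay only before start sites 15877, 51987 and 1278 bases from that of the transcript used for length. The Pfkm run above holds none. The cores and E-boxes counted are matches of letters in a short window and were not tested as binding sites.

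Of the glucose transporter genes, 1 of 2 fell. Slc2a1 (Entrez Gene 20525; chr4:119108745-119137330 in GRCm38) encodes GLUT1, the broadly expressed glucose transporter. Its level was 93.3, 106 and 95.01 CPM in static replicates 1, 2 and 3 and 66.5, 66.3 and 63.3 CPM in the stretched ones. Every stretched library lay below every static one, and the gene fell 1.49-fold (log2 fold change -0.58, SE 0.0478, adjusted p = 1.74e-07). Slc2a3 encodes GLUT3, a transporter of high glucose affinity. It had 38.9, 40.02 and 37.7 CPM in static and 38.4, 41.7 and 38.4 CPM in stretched libraries. The groups overlapped, and the 95% interval of its ratio, stretched over static, was 0.945 to 1.09 (adjusted p = 0.709). Its sign turned without static replicate 3 and without stretch replicate 2. Per base of transcript, the Slc2a1 to Slc2a3 ratio within a library was 3.06 ± 0.149 in static and 2.01 ± 0.0862 in stretched cells.

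At the first phosphorylation both hexokinase genes fell, by different amounts. Hk2 (Entrez Gene 15277; chr6:82725025-82774454), the inducible hexokinase typical of tumours, had 195, 201 and 193 CPM in static and 143, 143 and 141 CPM in stretched libraries. Replicates lay close together in both groups and Hk2 fell 1.38-fold (adjusted p = 7.102e-08). Hk1, the housekeeping hexokinase, fell 1.11-fold, from 67.7 ± 3.75 to 61.1 ± 1.34 CPM (adjusted p = 0.0141). Its call was lost with library size scaling (log2 fold change -0.08, adjusted p = 0.107), with a GC and length offset (-0.05, adjusted p = 0.460) and without stretch replicate 1 (-0.13, adjusted p = 0.0734). Hk2 held 69.3% ± 0.686 of the summed per-length hexokinase level in static and 64.4% ± 0.656 in stretched cells.

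Phosphofructokinase isoforms, at the committing step, moved in different directions. Its liver-type, muscle-type and platelet-type subunits are encoded by Pfkl, Pfkm and Pfkp. Pfkl (Entrez Gene 18641; chr10:77986947-78009807) had 210.1, 275 and 182 CPM in static and 123, 117 and 129 CPM in stretched libraries. Even the lowest static library was above the highest stretched one, and Pfkl fell 1.80-fold (log2 fold change -0.85, SE 0.102, adjusted p = 7.701e-06). Pfkm (Entrez Gene 18642; chr15:98092589-98132447) moved the other way, from 38.6, 36.1 and 37.4 CPM to 52.1, 53.5 and 51.4 CPM. It rose 1.398-fold (adjusted p = 5.04e-07) and was the 1 member called higher against 1.2-fold (adjusted p = 3.14e-04, glmTreat). Its span overlaps Senp1 on the other strand, whose log2 fold change was 0.15 against 0.48 for Pfkm. On either strand, the annotated transcripts of Pfkm shared no 31-base stretch with those of Senp1. They shared 9.35% of their stretches with Gm26513, which overlaps Pfkm on the same strand. Whether this holds in the index used by the authors is not known. Pfkp was 101 ± 7.78 and 93.4 ± 2.65 CPM and did not pass (adjusted p = 0.0677), although its groups did not overlap. Without static replicate 3 it passed (log2 fold change -0.15, adjusted p = 0.0106).

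Within each library the per-length ratio of Pfkl to Pfkm was 4.21, 5.88 and 3.75 in static and 1.82, 1.68 and 1.94 in stretched libraries. This ratio needs no scaling between libraries and did not overlap between the groups. Pfkl made up 61.0% ± 3.98 of the summed phosphofructokinase level in static and 44.7% ± 1.24 in stretched cells, and Pfkm 13.6% ± 2.21 and 24.7% ± 1.100. The sum of the 3 isoforms was 231 ± 29.7 and 184 ± 3.52 TPM. TPM are levels per transcript length, computed here from the counts and scaled to a common total per library without the TMM correction of the CPM.

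The remaining upper steps fell. Gpi1, which turns glucose 6-phosphate into fructose 6-phosphate, fell 1.15-fold, from 768 ± 70.2 to 666 ± 14.4 CPM (adjusted p = 0.00405), a call lost when GC and length were offset (adjusted p = 0.0564). Aldoa, the main aldolase, had 2164, 2295 and 1954 CPM in static and 1556, 1560.4 and 1623 CPM in stretched libraries. It fell 1.35-fold (adjusted p = 3.54e-06), and among the 8 members at or above 1000 TPM in static cells it was the one called against 1.2-fold. Aldoc, the aldolase known from brain (Entrez Gene 11676; chr11:78323073-78327781), had 19.5, 23.4 and 19.7 CPM in static and 7.96, 8.78 and 11.2 CPM in stretched libraries. It fell 2.27-fold (log2 fold change -1.18, SE 0.107, adjusted p = 4.58e-07), with every static library above every stretched one. It was a minor form throughout, at 0.540% ± 0.0356 and 0.326% ± 0.0512 of the summed aldolase level. Tpi1, the triose phosphate isomerase gene, fell 1.18-fold, from 1120.5 ± 139.8 to 951 ± 12.6 CPM (adjusted p = 0.00561), and did not pass in DESeq2 (adjusted p = 0.0541).

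Genes that set fructose 2,6-bisphosphate went different ways. Pfkfb4 encodes a bifunctional kinase and phosphatase known to respond to hypoxia. It had 9.22, 7.66 and 7.65 CPM in static and 5.56, 5.57 and 5.13 CPM in stretched libraries, without overlap, a fall of 1.505-fold (adjusted p = 2.398e-04). Pfkfb2, the paralog known from heart, rose 1.15-fold, from 30.8 ± 0.949 to 35.6 ± 1.71 CPM (adjusted p = 0.00376). It did not pass against 1.2-fold, and its span overlaps Gm29427 on the same strand and Yod1 on the other. Pfkfb3, which favours the kinase reaction and is known from glycolytic tumours, had 34.8 ± 1.502 and 36.4 ± 0.514 CPM and did not pass (adjusted p = 0.308). Tigar, a phosphatase that lowers fructose 2,6-bisphosphate, had 44.9 ± 1.101 and 48.4 ± 1.96 CPM and just missed the threshold (log2 fold change 0.11, adjusted p = 0.0583). It passed in 5 alternatives, with adjusted p from 0.00721 (library size scaling) to 0.0445 (without stretch replicate 3). The summed per-length level of the 3 PFKFB genes was 39.5 ± 2.07 and 42.9 ± 1.65 TPM, and Pfkfb4 held 14.2% ± 1.42 of it in static and 9.05% ± 0.285 in stretched cells.

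All 6 genes of lower glycolysis fell, by similar and small amounts. Gapdh, the glyceraldehyde phosphate dehydrogenase often used as a reference gene, was the most abundant member. It had 7324, 7849 and 6610.2 CPM in static and 5764, 5835 and 5976 CPM in stretched libraries, with no overlap, and fell 1.24-fold (adjusted p = 1.12e-04). Pkm, pyruvate kinase, fell 1.26-fold, from 3496 ± 259.5 to 2786 ± 65.4 CPM (adjusted p = 3.47e-05). The table counts genes, so splice forms of Pkm were not separated. Pgk1, the phosphoglycerate kinase gene, fell 1.22-fold, Pgam1, the phosphoglycerate mutase gene, 1.19-fold, and Eno1, the common enolase gene, 1.19-fold. Their log2 fold changes were -0.28, -0.25 and -0.26, and none of these 3 passed against 1.2-fold. Eno2, the enolase known from neurons, had 36.3, 31.7 and 37.6 CPM in static and 25.7, 27.5 and 26.5 CPM in stretched samples, with static replicate 2 the lowest static library. It fell 1.34-fold (adjusted p = 5.72e-05) and was the 1 of these 6 genes to pass against 1.2-fold (adjusted p = 0.0265).

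Several of these enzymes have processed copies elsewhere in the genome, between which the authors' estimated counts may be split. Of the members, 15 shared at least 10% of their 31-base stretches with other annotated genes. For some the other gene overlaps the member itself. Mpc1 shared 18.2% with 4930506C21Rik, Pfkfb2 16.6% with Gm29427, Pdha1 14.0% with Map3k15 and Pgm1 12.7% with Itgb3bp. The share with all other genes was 54.7% for Pgk1, 37.1% for Pgam1, 34.7% for Pkm and 33.0% for Ldhb. It was 30.8% for Mpc1, 28.5% for Eno1 and 28.1% for Gapdh. The levels of these genes are thus less certain than those of Slc16a3, Aldoc and Dlat, which shared none. Apart from copies, 17 members, Pfkm included, overlap an annotated gene on the other strand. Gys1 shared 5.38% of its stretches with that gene (Ruvbl2), Pfkp 5.28% (Pitrm1) and Hk1 1.45% (Hk1os). Pgm1 and Pdha1 also shared stretches with such a gene, as given above. In these shared stretches reads of both genes cannot be told apart without known strand. Pfkm shared none with Senp1, and Pdk2 none with Gm11513.

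**Figure D2:**
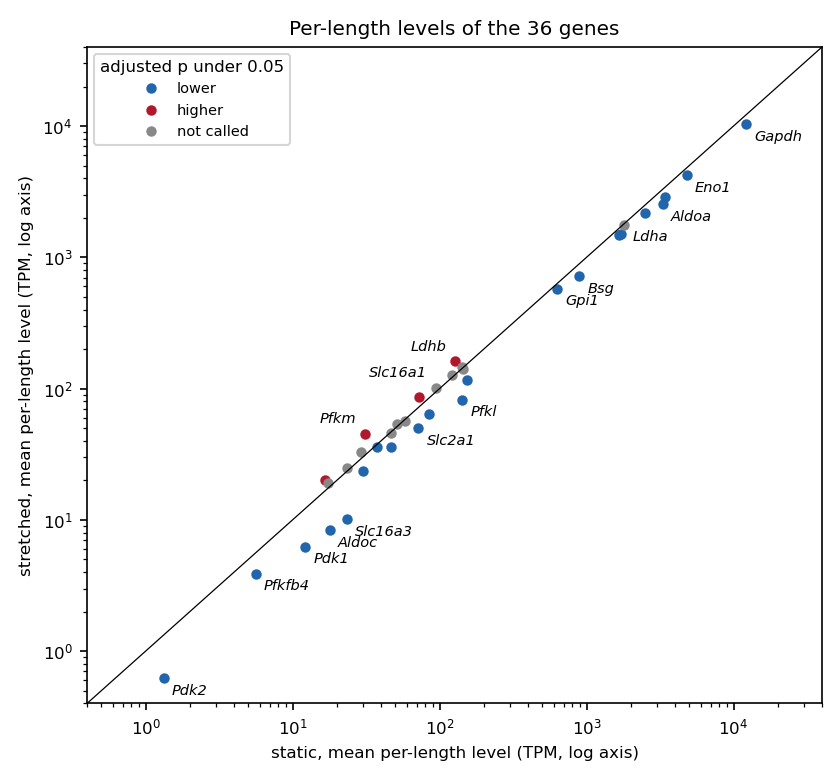
Mean per-length level of each of the 36 genes in static (x axis) and stretched cells (y axis), in TPM on log axes, with 3 libraries per group. Points below the diagonal have a lower TPM in stretched cells. TPM carry no TMM correction, so Pdha1, Pdhb and Mpc2 lie above the diagonal although their log2 fold changes were slightly negative. Gapdh, at 12191 and 10298 TPM, is the highest and Pdk2, at 1.33 and 0.619 TPM, the lowest.

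Per base of transcript, Gapdh (12191 ± 810.2 TPM in static cells) was followed by Eno1 (4789 ± 375), Pkm (3428 ± 188) and Aldoa (3289.97 ± 202). The means of Pkm and Aldoa differed by less than 1 SD over libraries, but Pkm was the higher in each of the 3 static libraries. Pgk1 (2511 ± 276), Ldha (1808 ± 207), Pgam1 (1717 ± 147) and Tpi1 (1661 ± 175) came next. The means of the last 3 lay within 1 SD of each other, and in each static library Ldha was above Pgam1 and Pgam1 above Tpi1. The 8 genes at or above 1000 TPM had log2 fold changes of -0.44 to -0.10, and 7 of them were called lower.

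Of the lactate genes 2 of 5 fell and 1 rose (background 25.9% and 24.9%). Ldha encodes the subunit of lactate dehydrogenase that favours lactate formation. It had 1290.02, 1587 and 1254 CPM in static and 1264, 1280.01 and 1313 CPM in stretched libraries. The groups overlapped, and it did not pass (log2 fold change -0.10, SE 0.0651, adjusted p = 0.224), with a 95% interval of 0.972 to 1.18 for the ratio of static to stretched. Single static libraries decided this value: it was 0.01 without static replicate 2 and -0.16 without static replicate 3, where it passed (adjusted p = 0.0175). Ldhb (Entrez Gene 16832; chr6:142490249-142507957), the subunit known for the reverse reaction, had 68.7, 72.4 and 68.5 CPM in static and 82.3, 82.9 and 88.2 CPM in stretched libraries, without overlap. It rose 1.21-fold (adjusted p = 6.97e-05), and did not pass against 1.2-fold (adjusted p = 0.640). The per-length Ldha to Ldhb ratio was 13.5, 15.7 and 13.1 in static and 11.0, 11.1 and 10.7 in stretched libraries, without overlap. Ldha made up 93.4% ± 0.590 of the summed level in static and 91.6% ± 0.155 in stretched cells.

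Slc16a3 was among the members that fell by more than 2-fold. It encodes MCT4, a lactate exporter of glycolytic cells (Entrez Gene 80879; chr11:120948484-120959000). Its level was 37.6, 57.5 and 32.4 CPM in static and 15.4, 17.7 and 19.8 CPM in stretched libraries. Static libraries differed widely, yet the lowest was still above every stretched one. Slc16a3 fell 2.40-fold (log2 fold change -1.26, SE 0.161, adjusted p = 1.39e-05), and its log2 fold change was -1.01 without static replicate 2. Its value was the lowest of the 36 with all libraries, but without static replicate 2 those of Aldoc (-1.11) and Pdk2 (-1.03) were lower. Slc16a1, which encodes MCT1, a transporter that carries lactate both ways, had 175 ± 8.95 and 180.5 ± 2.83 CPM. It did not pass (log2 fold change 0.05, adjusted p = 0.326). It passed with library size scaling (0.11, adjusted p = 0.0208) and without static replicate 2 (0.09, adjusted p = 0.0477), and its sign turned when GC and length were offset (-0.03, adjusted p = 0.527). Bsg, basigin, the chaperone that brings both transporters to the membrane, had 559, 614 and 534 CPM in static and 443, 434 and 446 CPM in stretched libraries, without overlap. It fell 1.29-fold (adjusted p = 8.897e-06). The per-length ratio of Slc16a1 to Slc16a3 was 4.51, 3.14 and 5.03 in static and 11.7, 9.93 and 8.81 in stretched libraries, a 2.43-fold difference.

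In the pyruvate dehydrogenase switch, 2 of 3 kinase genes fell. Pdk1 (Entrez Gene 228026; chr2:71873215-71903858), a kinase that inactivates pyruvate dehydrogenase and is known as a HIF-1 target, had 24.2, 33.4 and 22.0 CPM in static and 12.6, 12.9 and 13.3 CPM in stretched libraries. The stretched libraries were tightly grouped and all below the static ones. Pdk1 fell 2.02-fold (log2 fold change -1.01, SE 0.119, adjusted p = 6.39e-06). Pdk2 (Entrez Gene 18604; chr11:95026258-95041371) also fell, 2.18-fold (95% interval 1.46 to 3.26, adjusted p = 0.00300), but at a very low level. It had 1.28, 1.44 and 1.04 CPM in static and 0.591, 0.362 and 0.719 CPM in stretched libraries, the lowest of which held 8 counts. Pdk3, the kinase gene with the most mRNA per length here, had 41.3 ± 2.87 and 39.2 ± 1.53 CPM and did not pass (adjusted p = 0.338). Its share of the summed per-length kinase level was 77.7% ± 2.53 in static and 87.1% ± 0.791 in stretched cells, while the sum was 60.1 ± 5.08 and 53.1 ± 2.02 TPM.

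Of the 3 members that encode subunits of the pyruvate dehydrogenase complex, 1 rose and the other 2 did not pass. Pdha1, its catalytic alpha subunit, had 145 ± 10.1 and 144 ± 1.104 CPM (adjusted p = 0.909). Pdhb, its beta subunit, had 89.97 ± 0.540 and 88.1 ± 2.44 CPM (adjusted p = 0.486). Dlat, the acetyltransferase core, rose 1.13-fold, from 119.8, 128 and 122 to 142, 140.3 and 137 CPM (adjusted p = 0.00120), without overlap. Pdhx and Dld, which encode other components, also rose, 1.23-fold (adjusted p = 5.79e-05) and 1.11-fold (adjusted p = 0.00515); they are not members and were picked after their values were seen. Within libraries the per-length ratio of Pdk1 to Pdha1 was 0.0996 ± 0.0157 in static and 0.0494 ± 0.00113 in stretched cells. The mitochondrial pyruvate carrier genes did not pass. Mpc1 had 57.8 ± 4.20 and 54.0 ± 1.76 CPM (adjusted p = 0.153) and passed when GC and length were offset (log2 fold change -0.16, adjusted p = 0.0120). Mpc2 had 22.1 ± 1.83 and 22.0 ± 0.727 CPM (adjusted p = 0.885).

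Both glycogen branch genes fell. Pgm1, which links glucose 6-phosphate to glucose 1-phosphate, had 154, 188 and 149.6 CPM in static and 119, 116 and 119.7 CPM in stretched libraries, a fall of 1.38-fold (adjusted p = 3.22e-05). Gys1, the glycogen synthase gene outside liver, fell 1.35-fold, from 71.8 ± 7.57 to 53.0 ± 2.24 CPM (adjusted p = 4.34e-05). Neither gene's groups overlapped, and both genes passed against 1.2-fold.

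Of 14 ratios between related members, 11 did not overlap between the groups. Each of these 11 had the smallest two-sided p that an exact permutation test of 3 against 3 allows, 0.1 (0.127 adjusted over the 14), so this design cannot bring them under 0.05. The other 3, Eno1 to Eno2, Mpc1 to Mpc2 and Pdk1 to Pdk2, overlapped (exact permutation p = 0.4, 0.4 and 0.8). Among single tested genes, groups did not overlap in 29.4% (stretched lower) and 29% (stretched higher), and no such share was computed for ratios. Pdk1, Pfkl, Pfkm and Pfkp each enter more than 1 ratio, so the 11 are not separate results.

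**Figure D3:**
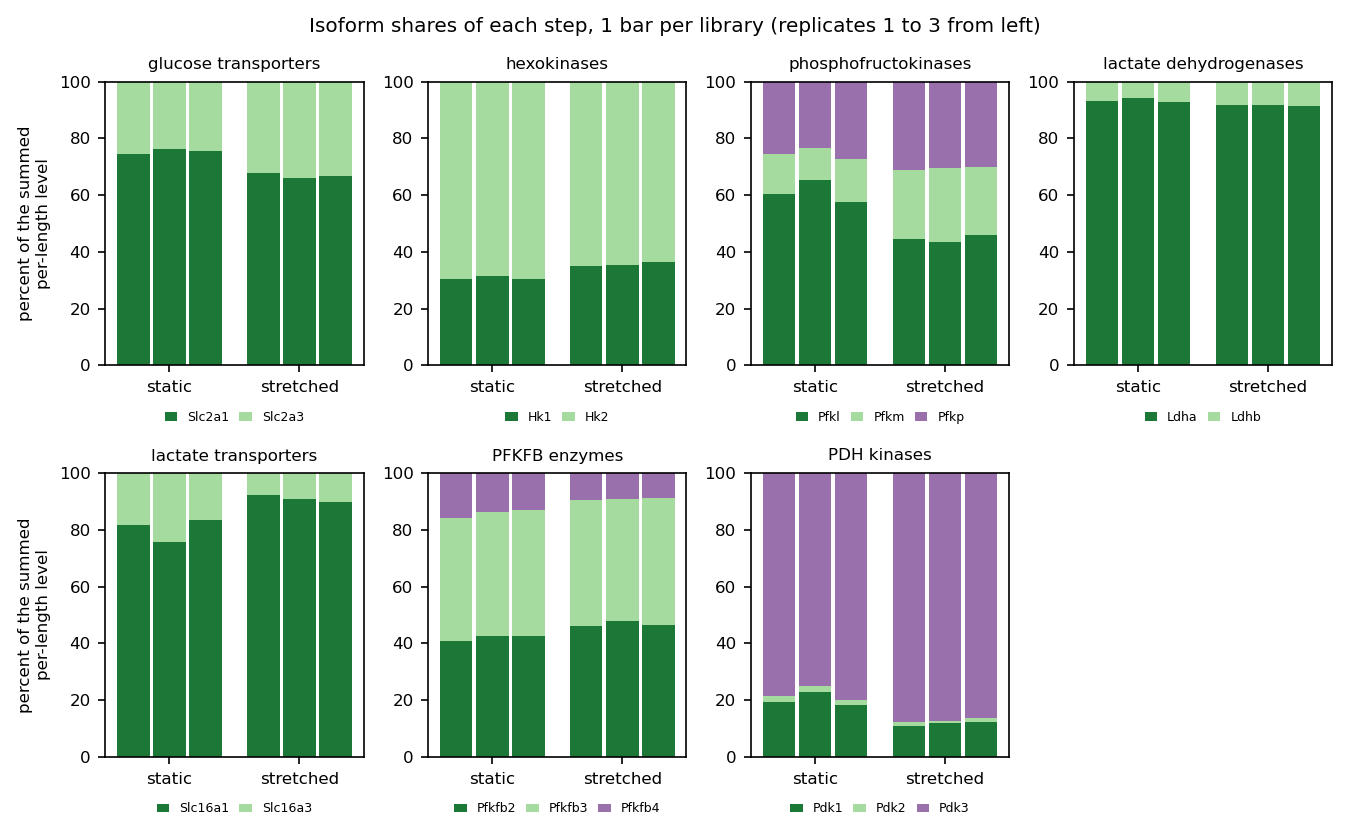
Share of each isoform in the summed per-length level of its step (y axis, percent), with 1 bar per library, 3 static on the left and 3 stretched on the right of each panel. The share of Pfkl drops from 61.0% to 44.7%, that of Slc16a3 from 19.6% to 9.06%, and that of Ldha from 93.4% to 91.6%.

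The static libraries were not alike for these genes. Static replicate 2 had the highest static level in 28 of the 36 members and static replicate 3 the lowest in 26. The full order, replicate 2 above 1 above 3, held in 24 members, against 23.7% of all tested genes. It was not particular to the members. The same order held in most of the tested hypoxia targets outside glycolysis described below, Ero1a and P4ha1 among them, though not in Vegfa or Car12. Relative to the mean of the stretched libraries, the median log2 level of the members was higher by 0.37 in static replicate 2, 0.21 in replicate 1 and 0.11 in replicate 3. The median SD over replicates, on the log2 scale, was 0.113 for members in static cells against 0.0727 for all genes, and 0.0376 against 0.0548 in stretched cells. Static replicate 2 was the shallowest library (19469286 counts) and replicate 3 the deepest static one (30042222). With all libraries thinned to the smallest total, all 25 calls were kept. What set the order of the static libraries was not tested.

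Without static replicate 2 all 25 calls were also kept, and Slc16a1 was added. The median log2 fold change of the members became -0.15. The values of Gpi1, Tpi1, Pgk1 and Pgam1 shrank by more than 1.5 times, to -0.13, -0.14, -0.18 and -0.16. Larger changes kept most of their size, with -0.84 for Pdk1, -0.67 for Pfkl and -1.11 for Aldoc. Without static replicate 3 the median was -0.32, and Ldha and Pfkp were called lower too.

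**Figure D4:**
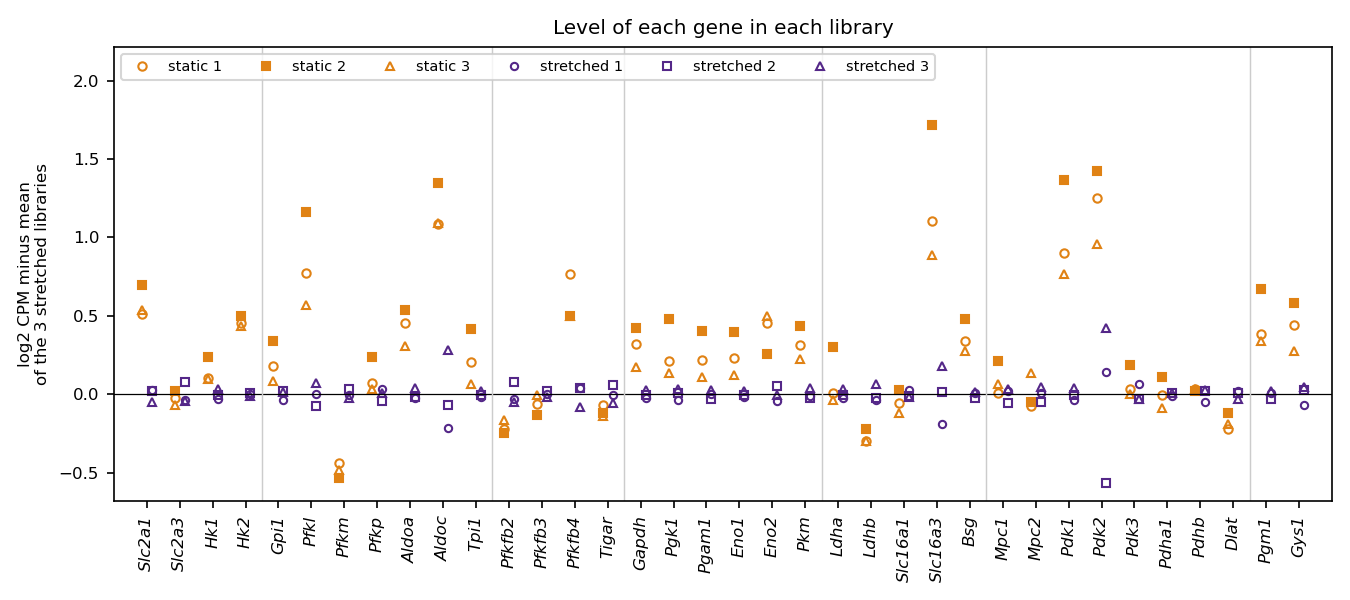
Level of each of the 36 genes in each library (y axis, log2 CPM minus the mean of the 3 stretched libraries), with orange symbols for static and violet for stretched libraries and grey lines between pathway steps. Filled squares, static replicate 2, are the highest static points in 28 genes, most clearly in Slc16a3, Pdk1 and Pfkl.

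Neighbouring pathways were read from lists that hold no member, beside a background of 25.9% lower and 24.9% higher over all tested genes. In the pentose phosphate pathway, which draws on glucose 6-phosphate to make NADPH and ribose, 6 of 8 genes fell and none rose (median log2 fold change -0.27). Pgd and G6pdx, its dehydrogenases that make NADPH, fell from 492 ± 7.27 to 289 ± 5.70 CPM and from 285 ± 5.64 to 195 ± 4.23 CPM. Taldo1, transaldolase, fell 1.37-fold. In glycogen metabolism 7 of 16 genes fell and 2 rose. Gaa, the lysosomal glucosidase, and Gbe1, the branching enzyme, fell 1.41-fold and 1.42-fold. Pygm, muscle phosphorylase, rose at a low level, from 0.761 ± 0.0783 to 1.17 ± 0.0639 CPM (adjusted p = 0.0325), a call lost in DESeq2 (adjusted p = 0.154), with the replicate block (adjusted p = 0.0583), without the count filter, after thinning, against 1.2-fold and whenever any 1 library was left out. Where the call was lost its log2 fold change was 0.52 to 0.68.

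Among other sugar entry and glycolysis genes 5 of 17 fell and 2 rose (median -0.05). Slc2a6, a lysosomal member of the glucose transporter family, fell from 20.5 ± 1.30 to 9.86 ± 0.406 CPM. Slc2a5, the fructose transporter, fell 1.28-fold, and Galm, which interconverts sugar anomers, 1.21-fold. Mpi, the mannose phosphate isomerase gene, rose 1.199-fold. Among other lactate and pyruvate genes 7 of 22 fell and 6 rose (median 0.02). Over all tested genes 25.9% were lower and 24.9% higher, so the lower shares of both lists and the higher share of the second lie near the background, and the genes named from them are single results. Pck2, which makes phosphoenolpyruvate in mitochondria, fell from 148 ± 2.28 to 67.0 ± 4.34 CPM. Gpt2, an alanine aminotransferase that makes or uses pyruvate, fell 1.77-fold, and Acly, which makes acetyl-CoA from citrate, 1.55-fold. Gpd2, the mitochondrial arm of the glycerol phosphate shuttle, rose 1.21-fold.

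Of 16 genes that regulate glycolytic transcription 7 fell and 1 rose, against 25.9% lower and 24.9% higher over all tested genes. Hif1a, the oxygen-regulated subunit of HIF-1, had 252, 259.5 and 246 CPM in static and 264, 264 and 261 CPM in stretched libraries and did not pass (adjusted p = 0.161), although its groups did not overlap. It passed with library size scaling (log2 fold change 0.12, adjusted p = 0.00449), and its sign turned when GC and length were offset (-0.05, adjusted p = 0.329). HIF-1 activity is set mainly at the protein level, which was not measured. Myc rose 1.51-fold, from 53.3 ± 4.09 to 81.0 ± 3.34 CPM. Atf4, a transcription factor induced when amino acids are short, fell 1.68-fold. Mxi1, an antagonist of MYC, fell 1.41-fold, and Egln2, an oxygen-sensing hydroxylase of the HIF pathway, 1.21-fold. Txnip, induced by glucose, had 49.6 ± 3.96 and 49.0 ± 2.01 CPM and did not pass (adjusted p = 0.936).

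Of 13 tested hypoxia targets outside glycolysis 10 fell and 1 rose (median -0.57), against 25.9% lower and 24.9% higher over all tested genes. Ero1a, P4ha1 and Vegfa had log2 fold changes of -1.12, -1.01 and -0.74. Car12, a carbonic anhydrase, was the one that rose, from 0.798 ± 0.0580 to 1.33 ± 0.0846 CPM (adjusted p = 0.0119), and did not pass in DESeq2 (adjusted p = 0.0745). The members and these lists were chosen with earlier results of the same samples known, so their counts are descriptions.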

How the data were processed

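Expression was measured by RNA sequencing in 3 static and 3 stretched samples, grouped by the sample titles. The authors deposited estimated counts, 1 whole number per gene and sample, unscaled. The submitters' processing notes name Salmon 1.4.0 with mm10 and GRCm38. The index, the summing to genes and the strandedness: not given in the sources used here. Symbols and positions came from the RefSeq table of GRCm38.p6 (14875 of 14883 numbers matched).

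Counts were fitted in edgeR 4.0.16 (R 4.3.3): filterByExpr (minimum count 10), TMM scaling, a quasi-likelihood model with group alone (4 residual degrees of freedom), two-sided, Benjamini-Hochberg over 12377 genes, called under 0.05. The SE is the size of the log2 fold change over the root of F. The biological coefficient of variation was 3.6%. The procedure was checked on simulated counts. Per-length levels used the longest coding GENCODE M21 transcript (12280 tested genes). Ratios between members were log2 count ratios within libraries after adding 0.5.

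Named genes were all members, and per other list the 3 called genes of lowest p in the main direction and 1 in the other (the 2 most abundant if none was called), plus Hif1a, Myc, Txnip and Atf4; 1 gene that this rule names is not reported here. Pdhx and Dld, outside the rule, were picked after their values were seen, and Senp1 for its overlap with Pfkm. Mitf was named as the melanocyte marker that went against their sum. The members and lists were chosen with earlier results of these data known. Alternatives were RLE, upper quartile and library size scaling, no count filter, at least 5 CPM in any 3 samples, glmTreat at 1.2-fold, DESeq2 1.42.0, limma-voom (limma 3.58.1), a replicate block, thinning, a GC and length offset (splines with 5 degrees of freedom) and each library left out.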

Additional observations from a re-analysis of the deposited data

How the results depend on the processing

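Of 1034 values of single genes under alternatives, 970 kept their direction and side of the threshold, 34 lost and 11 gained a call, and 19 turned sign; none of those 19 belonged to a called gene. Against 1.2-fold, 18 of the lost calls occurred, the members called were 13 lower and 1 higher, and over all genes 913 lower and 679 higher. In the other alternatives 20 to 23 members were lower and 4 to 6 higher. The median of the members ran from -0.3164 to -0.151 with 1 library left out, was -0.1794 with library size scaling (where the median of all genes moved to 0.0636) and -0.1751 with the GC and length offset. Library size scaling called 19.4% of all genes lower and 33.3% higher, against 20 and 6 members.

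Sign turns of log2 fold changes with 1 library left out, given as lowest and highest values, were found for Slc2a3 (-0.01536 to 0.04652), Ldha (-0.1635 to 0.01443), Mpc2 (-0.05767 to 0.06315), Pdha1 (-0.05584 to 0.04357), Txnip (-0.05242 to 0.05422) and the log2 Pdk1 to Pdk2 ratio (-0.09535 to 0.3559). With upper quartile factors Mpc2 was 0.002258, Pdha1 0.008709 and Txnip 0.009333. With library size scaling Mpc2 was 0.0469, Pdha1 0.05436, Pdhb 0.02797 and Txnip 0.05417. With the GC and length offset Slc16a1 was -0.03461, Mpc2 0.01311 and Hif1a -0.04643, and in limma-voom Txnip was 0.001183. The cause was not tested. Of 112 ratio values, 111 kept their direction, and the log2 Pdk1 to Pdk2 ratio turned sign without stretch replicate 2 (-0.09535).

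With the replicate number as a block, 21 members were called lower and 4 higher, and all 25 calls were kept; of the other genes named by the rule, Pygm lost its call (adjusted p = 0.0583). The labels do not say that numbers mark a shared batch. Correlations of deviations over tested genes were -0.0158, -0.0247 and -0.112 for same-numbered samples. For differently numbered samples they were -0.0835 to 0.105. With 3 libraries per group these values cannot show whether same-numbered samples share a batch. Depth limits Pdk2, with 8 counts in its lowest library.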
